A study of Mus musculus with 8 samples.

Results

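The genes described here are 41 genes of DNA replication and of the passage from G1 into S phase, taken by name from a table of 27998 genes measured in single bone marrow progenitors. All 41 names were found in the table. The rule takes genes by name and uses no measured value, but the list was drawn up with earlier results of these data known. Before a cell can copy its DNA, the origin recognition complex (Orc1 to Orc6), Cdc6 and Cdt1 load the Mcm2 to Mcm7 helicase on chromatin, a step called licensing that geminin (Gmnn) blocks once S phase has begun. Cyclin E (Ccne1, Ccne2) and E2F transcription factors then drive entry into S phase, Cdc45, GINS and Mcm10 turn the loaded helicase into an active one, and polymerases, the Pcna clamp, nucleotide-making enzymes and histone chaperones copy and repackage the DNA. In bone marrow these genes mark dividing progenitors, while long-term hematopoietic stem cells (LTHSC) are known for being mostly quiescent.

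The cells came from female C57BL/6 (B6) mice of 3-4 months. SPF mice stayed in a specific-pathogen-free facility, and CVT mice had been moved from such a facility to a conventional one and housed there for 1 month with mice of that facility. Bone marrow was sorted for KL cells, which are CD117 (c-Kit) positive and negative for CD3, CD4, CD8, CD45R, CD11b, TER119 and GR1, and droplet libraries of transcript 3′ ends were made from 4 pools of SPF mice (pools 1, 2, 7 and 8) and 4 pools of CVT mice (pools 3, 4, 5 and 6). Each pool held 2 or 3 mice, so the p-values below measure the spread between pools of different mice. The mouse numbers in the labels place pools 1 to 4 before pools 5 to 8, with 2 SPF and 2 CVT pools on each side, and the labels do not say what this numbering stands for. Cells carry a number from 1 to 8 after their barcode, which was taken as the pool, and taking pools 1, 4, 6 and 7 as the SPF pools would have given 12326 SPF cells against 12331, so cell numbers do not settle that reading.

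The table held 12331 SPF cells and 17560 CVT cells, with 1888 to 4845 cells, 19041749 to 59812346 UMIs (unique molecular identifiers, each counting 1 captured transcript) and a median of 7530 to 12772 UMIs per cell in a pool. The 41 genes took 0.314% to 0.396% of a pool's UMIs. Levels are given as UMIs per 1000000 UMIs of the summed cells (CPM), and since the kit reads only the 3′ end they are not divided by transcript length. Kit, the gene of CD117, stood at 56.8 to 87.2 CPM in the pools, and Cd3e, Cd4 and Cd8a at 0.656 CPM or less, but Itgam (the gene of CD11b, 5.99 to 29.1 CPM) and Ly6g (the GR1 antigen, 7.41 to 69.5 CPM) were present. Late granulocyte genes, a list of 12 that includes S100a8, Ngp and Ltf, summed to 5613 to 26959.9 CPM in the CVT pools and 9291 to 44655 CPM in the SPF pools, and to 5613 to 22413 CPM in pools 1 to 4 against 17026 to 44655 CPM in pools 5 to 8. In sums over all KL cells, fewer cells of a type and less RNA per cell cannot be told apart. A total of 522 cell barcodes occurred in 2 or more pools (1048 cells).

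Promoters of 5 licensing genes and of Ccne1 are shown because a sequence feature that was not used to choose the genes was frequent, though not general, among the licensing genes. RefSeq windows (build GRCm38.p6) from 250 bases before to 50 bases after the start of the gene were found for 33 of the 41 genes. The letters TTTNNCGC, the core of the element that E2F factors recognise, were searched on both strands, so that a palindromic element counts once on each. The promoters of Mcm3, Mcm5, Mcm6 and Mcm7 held 2 to 3 matches each, whereas those of Mcm2 and of the cyclin gene Ccne1 held none in this window. Each sequence reads 5′ to 3′ on the strand of the gene, with the matches in capitals.
Mcm3 (chr1:20820263-20820562, minus strand): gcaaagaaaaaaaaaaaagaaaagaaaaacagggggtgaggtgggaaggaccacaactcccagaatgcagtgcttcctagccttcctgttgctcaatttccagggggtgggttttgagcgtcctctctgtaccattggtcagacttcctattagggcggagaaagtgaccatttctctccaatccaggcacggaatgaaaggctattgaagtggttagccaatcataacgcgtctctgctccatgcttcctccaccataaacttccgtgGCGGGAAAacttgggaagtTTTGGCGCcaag
Mcm5 (chr8:75109259-75109558, plus strand): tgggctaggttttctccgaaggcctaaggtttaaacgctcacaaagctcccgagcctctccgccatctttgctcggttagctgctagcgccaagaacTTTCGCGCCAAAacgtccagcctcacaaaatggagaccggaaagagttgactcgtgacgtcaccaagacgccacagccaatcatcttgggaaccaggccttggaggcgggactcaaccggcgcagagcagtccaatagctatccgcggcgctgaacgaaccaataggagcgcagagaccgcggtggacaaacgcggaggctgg
Mcm6 (chr1:128359656-128359955, minus strand): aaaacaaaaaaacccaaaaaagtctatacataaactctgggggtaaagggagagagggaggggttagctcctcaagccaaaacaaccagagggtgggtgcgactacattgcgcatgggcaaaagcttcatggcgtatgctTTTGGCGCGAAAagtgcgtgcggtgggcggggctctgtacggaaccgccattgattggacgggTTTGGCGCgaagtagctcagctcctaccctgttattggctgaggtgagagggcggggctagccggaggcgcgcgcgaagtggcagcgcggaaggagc
Mcm7 (chr5:138171834-138172133, minus strand): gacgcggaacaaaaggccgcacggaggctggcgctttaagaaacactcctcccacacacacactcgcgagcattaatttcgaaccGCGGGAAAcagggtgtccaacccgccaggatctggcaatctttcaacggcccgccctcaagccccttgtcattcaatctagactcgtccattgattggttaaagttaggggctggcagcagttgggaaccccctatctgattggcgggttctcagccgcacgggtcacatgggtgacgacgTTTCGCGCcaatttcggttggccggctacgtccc
Mcm2 (chr6:88898731-88899030, minus strand): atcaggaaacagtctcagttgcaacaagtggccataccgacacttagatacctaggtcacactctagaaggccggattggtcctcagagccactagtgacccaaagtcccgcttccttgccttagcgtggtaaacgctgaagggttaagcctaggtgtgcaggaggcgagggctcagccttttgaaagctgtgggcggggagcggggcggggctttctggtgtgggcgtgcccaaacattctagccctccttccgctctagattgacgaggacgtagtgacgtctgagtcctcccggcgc
Ccne1 (chr7:38107441-38107740, minus strand): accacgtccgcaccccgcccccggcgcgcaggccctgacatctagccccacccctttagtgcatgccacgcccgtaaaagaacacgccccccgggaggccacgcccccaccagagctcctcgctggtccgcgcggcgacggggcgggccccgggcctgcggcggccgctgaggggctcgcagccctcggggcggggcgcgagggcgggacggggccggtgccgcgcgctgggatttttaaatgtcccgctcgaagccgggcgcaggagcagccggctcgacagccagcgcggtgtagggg

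At least 1 match stood in 13 of the 33 promoters (39.4%), against 1425 of the 27025 promoters in the RefSeq table (5.27%). By role, it stood in 7 of 9 licensing promoters (Mcm3, Mcm5, Mcm6, Mcm7, Cdc6, Cdt1 and Orc1), 2 of 3 polymerase promoters (Pola1 and Pold1), 2 of 5 chromatin promoters (Uhrf1 and Hells), 1 of 6 clamp and fork promoters (Clspn) and 1 of 5 promoters of nucleotide supply (Tyms). None of the 3 promoters of G1/S regulators or the 2 of helicase activation held one. The median GC content was 58.3% for the 33 promoters and 52.7% for all promoters. These matches describe the letters of the windows, and binding was not measured.

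Summed over all KL cells, the 41 genes stood at 3596 ± 305 CPM (mean and SD of 8 pools), and their levels spanned from 6.60 CPM for Orc1 to 463 CPM for Dut. By role, licensing took 1111 ± 109.6 CPM, the clamp and fork 847 ± 62.4 CPM, nucleotide supply 841 ± 83.8 CPM, chromatin 412 ± 27.8 CPM, polymerases 150.2 ± 11.3 CPM, helicase activation 139 ± 12.9 CPM and G1/S regulators 96.2 ± 10.5 CPM. The values that follow are in the order of pools, where pools 1, 2, 7 and 8 are SPF and pools 3 to 6 are CVT.

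Among the licensing genes, the helicase subunit Mcm6 was the most abundant, with 196, 219.5, 213 and 212 CPM in pools 1 to 4 and 171, 160.2, 176 and 193 CPM in pools 5 to 8. Mcm7 held 155, 183, 190.1 and 201 CPM in pools 1 to 4 and 149, 146, 145 and 167 CPM in pools 5 to 8. Mcm3 held 155, 173, 172 and 168 CPM in pools 1 to 4 and 136, 141, 152 and 157 CPM in pools 5 to 8. For all 3 genes pools 5 and 6 lay below pools 3 and 4, although these 4 pools are all CVT. Mcm5 held 117, 128, 136 and 143 CPM in pools 1 to 4 and 105, 101, 100.4 and 118 CPM in pools 5 to 8. Mcm2 held 90.4, 101, 101 and 107 CPM in pools 1 to 4 and 79.9, 81.7, 86.0 and 91.1 CPM in pools 5 to 8. Mcm4, the least abundant subunit, held 55.2, 63.6, 59.3 and 57.5 CPM in pools 1 to 4 and 52.2, 51.9, 49.6 and 53.2 CPM in pools 5 to 8. The CVT and SPF pools overlapped for each of the 6 subunits.

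The loading factors Cdc6 and Cdt1 stood below or near the level of Mcm4. Cdc6, the ATPase that recruits the helicase, held 29.8, 33.4, 33.1 and 32.9 CPM in pools 1 to 4 and 25.4, 26.5, 21.0 and 28.6 CPM in pools 5 to 8. Cdt1, its partner, held 58.0, 58.1, 60.2 and 65.7 CPM in pools 1 to 4 and 51.6, 56.3, 48.4 and 52.3 CPM in pools 5 to 8. In both genes every one of pools 5 to 8 was below every one of pools 1 to 4, while CVT and SPF pools were interleaved. Geminin, the inhibitor of Cdt1, was more abundant, with 147, 160.0, 157 and 167 CPM in pools 1 to 4 and 139.9, 164, 133 and 150.1 CPM in pools 5 to 8. Orc6, the smallest subunit of the origin complex, held 82.1, 91.0, 97.2 and 94.3 CPM in pools 1 to 4 and 78.6, 84.3, 68.4 and 82.8 CPM in pools 5 to 8. Geminin was highest in CVT pools 4 and 6 and lowest in SPF pool 7, with overlap between the groups, and Orc6 was highest in CVT pools 3 and 4. Orc1, at 5.75 to 7.83 CPM, was the rarest of the 41 genes. In helicase activation, the GINS subunit Gins2 held 57.5, 64.9, 62.7 and 68.4 CPM in pools 1 to 4 and 53.1, 56.9, 51.9 and 56.9 CPM in pools 5 to 8, again with pools 5 to 8 below pools 1 to 4, and Gins1, Cdc45 and Mcm10 ranged over the 8 pools from 28.1 to 34.7, 23.5 to 35.5 and 15.7 to 21.6 CPM.

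At the fork, Rfc2, a subunit of the clamp loader, held 209, 220.5, 208 and 209.8 CPM in pools 1 to 4 and 190.5, 188, 194 and 213 CPM in pools 5 to 8. Pcna, the clamp itself, held 144, 168, 149 and 147 CPM in pools 1 to 4 and 151, 151, 145 and 140.0 CPM in pools 5 to 8. Rfc4, another subunit of the loader, held 91.1, 101, 100.3 and 102 CPM in pools 1 to 4 and 75.1, 83.9, 76.3 and 91.2 CPM in pools 5 to 8. The pools of the 2 housing groups overlapped for all 3 genes, and Pcna spanned 147 to 151 CPM in the CVT pools. Fen1, the nuclease that trims Okazaki fragments, held 99.2, 108, 105 and 99.3 CPM in pools 1 to 4 and 77.8, 89.5, 81.1 and 95.9 CPM in pools 5 to 8. Clspn, which links the fork to the checkpoint kinase Chk1, held 42.7, 41.9, 42.6 and 46.4 CPM in pools 1 to 4 and 34.8, 41.2, 32.1 and 38.0 CPM in pools 5 to 8. Dscc1, part of an alternative clamp loader, held 23.8, 25.4, 22.1 and 24.1 CPM in pools 1 to 4 and 19.3, 19.7, 19.3 and 22.5 CPM in pools 5 to 8. Fen1 and Clspn were lower in every one of pools 5 to 8 than in any of pools 1 to 4, whereas Dscc1 in pool 8 was just above that in pool 3. The 4 polymerase genes, Prim1, Pola1, Pold1 and Pole, had means of 60.3, 38.4, 34.3 and 17.1 CPM.

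In nucleotide supply, Dut, which removes dUTP before it can be built into DNA, was the most abundant of the 41 genes, with 438, 493, 501 and 509 CPM in pools 1 to 4 and 442, 485, 385 and 449.9 CPM in pools 5 to 8. Rrm2, the small subunit of ribonucleotide reductase, held 95.5, 100.2, 108 and 112 CPM in pools 1 to 4 and 85.8, 96.0, 81.2 and 92.8 CPM in pools 5 to 8. Tk1, the thymidine kinase of the cytosol, held 65.2, 76.7, 79.5 and 86.2 CPM in pools 1 to 4 and 61.6, 79.4, 61.0 and 70.1 CPM in pools 5 to 8. All 3 were lowest in SPF pool 7 and highest in CVT pool 4, with overlap between the groups. Among the chromatin genes, Slbp, which binds the ends of histone mRNAs, held 201, 210.0, 210.2 and 191 CPM in pools 1 to 4 and 180.1, 191, 177 and 194 CPM in pools 5 to 8. Chaf1b, a subunit of the histone chaperone CAF-1, held 45.4, 46.9, 48.7 and 53.2 CPM in pools 1 to 4 and 38.8, 37.6, 36.6 and 44.5 CPM in pools 5 to 8. Chaf1b was lower in each of pools 5 to 8 than in pools 1 to 4, and Slbp overlapped between all groups. Among the G1/S regulators, Ccne1 (cyclin E1) held 22.2, 23.8, 33.1 and 33.4 CPM in pools 1 to 4 and 18.1, 21.2, 10.0 and 21.3 CPM in pools 5 to 8. Ccne1 was highest in CVT pools 3 and 4 and lowest in SPF pool 7, but CVT pools 5 and 6 lay below SPF pools 1, 2 and 8. E2f1, E2f8 and Ccne2 ranged over the 8 pools from 26.9 to 32.8, 23.6 to 29.9 and 14.6 to 19.9 CPM.

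Among the 6 progenitor classes compared, the replication genes were lowest in LTHSC-like cells and highest in megakaryocyte-erythrocyte progenitor (MEP)-like cells. Cells were grouped into 33 clusters from variable genes after 204 cell cycle genes, the 41 included, had been left out. Clusters were named from marker genes, so that classes are compared here as a description without a test. The markers found in the MEP-like clusters were erythroid genes such as Car1, Klf1 and Blvrb. None of the megakaryocyte genes of that marker list (Pf4, Vwf, Gp1bb and Gp9) was among them, and the cluster led by Pf4 and Gp1bb was CMP-like. The summed level was 1370.3 ± 161 CPM in LTHSC-like cells, 3096 ± 209 CPM in common myeloid progenitor (CMP)-like cells, 3212 ± 252 CPM in multipotent progenitor (MPP)-like cells, 3704 ± 186 CPM in granulocyte-monocyte progenitor (GMP)-like cells, 3773 ± 218 CPM in lymphoid multipotent progenitor (LMPP)-like cells and 4574 ± 285 CPM in MEP-like cells (SD over 8 pools). LTHSC-like cells were lowest and MEP-like cells highest in 8 of 8 pools. MPP-like cells were above CMP-like cells in 4 of 8 pools and LMPP-like cells above GMP-like cells in 5 of 8, so these neighbours in the order did not differ beyond their spread. At an equal depth of 2759 UMIs per cell, 15 or more UMIs of the 41 genes were found in 1.87% of LTHSC-like cells, 14.2% of CMP-like cells, 14.4% of MPP-like cells, 17.6% of GMP-like cells, 19.7% of LMPP-like cells and 32.5% of MEP-like cells. Of all cells, 2801 lay within 1 UMI of that limit. Those shares are of the cells of all pools together. In single pools they ran from 0.0% to 5.08% in LTHSC-like, 9.87% to 16.7% in CMP-like and 12.2% to 22.5% in MPP-like cells. They ran from 12.2% to 28.2% in GMP-like, 13.5% to 25.4% in LMPP-like and 25.8% to 38.2% in MEP-like cells, so the classes between LTHSC-like and MEP-like overlapped.

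**Figure D1:**
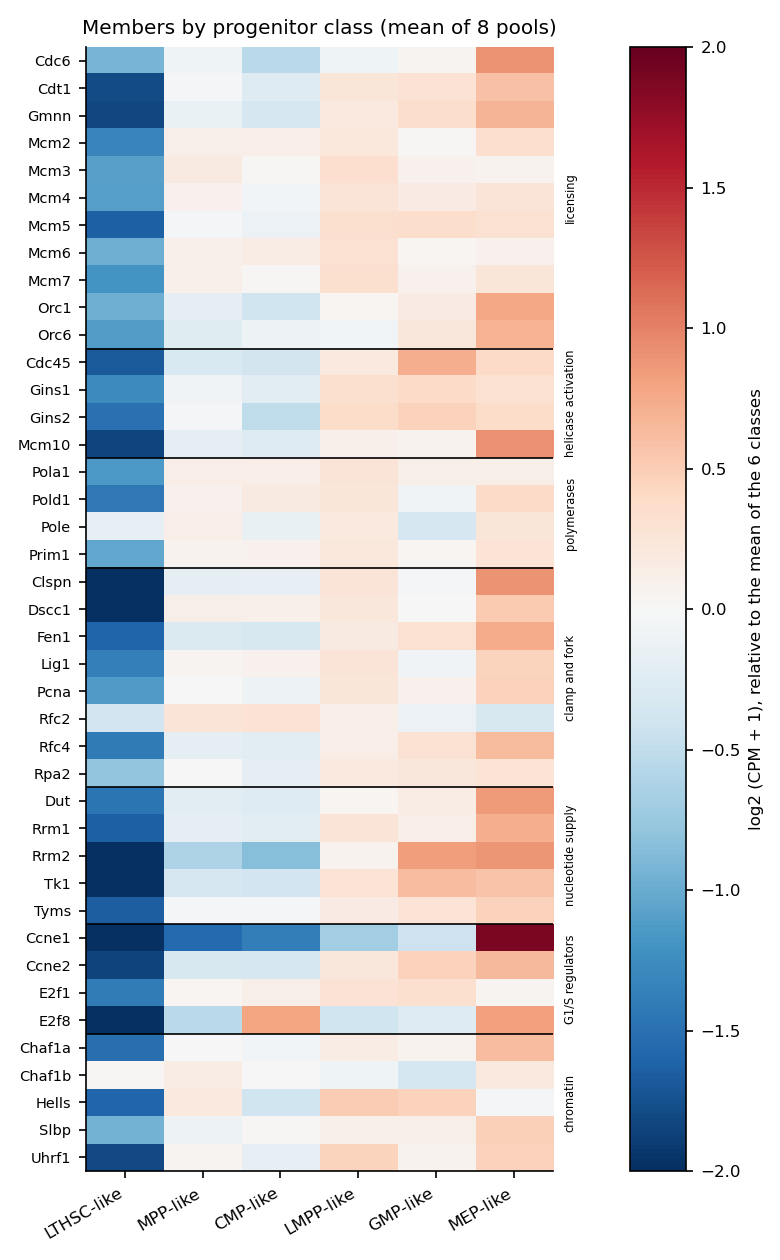
Level of each of the 41 genes in 6 progenitor classes, as log2 (CPM + 1) of the mean of 8 pools minus the log2 of that gene's mean over the classes; genes are grouped by role. The LTHSC-like column is lowest for 39 genes and the MEP-like column highest for 28, with Ccne1 the most uneven between classes.

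LTHSC-like cells held the lowest level of 39 of the 41 genes, and GMP-like cells that of Chaf1b and Pole. The highest level lay in MEP-like cells for 28 genes, in LMPP-like cells for 6 (Mcm3, Mcm4, Mcm6, Mcm7, Pola1 and Hells), in GMP-like cells for 6 (Mcm5, Gins1, Gins2, Cdc45, E2f1 and Tk1) and in CMP-like cells for Rfc2. All 41 genes were higher in MEP-like than in LTHSC-like cells, with a median log2 ratio of 1.82, against -0.21 for the 9015 genes of at least 5 CPM. Between MEP-like and GMP-like cells the median log2 ratio was 0.33, against 0.14 for those 9015 genes.

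By role, the licensing genes summed to 427 ± 44.6 CPM in LTHSC-like cells, 1235 ± 76.9 CPM in LMPP-like cells and 1323 ± 111 CPM in MEP-like cells. The nucleotide supply genes had a steeper range, from 226 ± 36.0 CPM in LTHSC-like cells through 889 ± 34.5 CPM in GMP-like cells to 1245 ± 93.0 CPM in MEP-like cells. Polymerase genes were nearly level outside the LTHSC-like class, from 142 ± 7.35 CPM in GMP-like cells to 171 ± 10.2 CPM in MEP-like cells.

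The 5 genes with the largest ratio of highest to lowest class were Ccne1, Rrm2, Clspn, E2f8 and Mcm10. Ccne1 stood at 2.86 ± 2.35 CPM in LTHSC-like, 5.01 ± 2.34 in MPP-like, 5.73 ± 1.30 in CMP-like, 9.90 ± 2.26 in LMPP-like, 12.2 ± 2.52 in GMP-like and 63.8 ± 15.2 CPM in MEP-like cells. The MEP-like level was 22.3 times the LTHSC-like level, which rested on 14 UMIs in 857 cells, and 5.21 times the GMP-like level. In single pools MEP-like Ccne1 was 54.0, 65.7, 79.2 and 84.2 CPM in pools 1 to 4 and 56.2, 64.6, 36.4 and 70.3 CPM in pools 5 to 8, each above the GMP-like value of its pool. Ccne2, the other cyclin E gene, was 23.7 ± 3.19 CPM in MEP-like and 20.7 ± 3.00 CPM in GMP-like cells, a ratio of 1.15, and was above the GMP-like value in 6 of 8 pools.

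Rrm2 went from 8.44 ± 4.55 CPM in LTHSC-like cells to 129 ± 7.98 CPM in GMP-like and 133 ± 17.5 CPM in MEP-like cells. Clspn stood at 5.83 ± 4.40 CPM in LTHSC-like and 64.0 ± 4.33 CPM in MEP-like cells, and Mcm10 at 3.87 ± 4.77 and 31.9 ± 1.66 CPM. E2f8, an E2F factor that represses its targets, differed from the other genes in its order, with 39.3 ± 3.53 CPM in MEP-like and 38.6 ± 3.76 CPM in CMP-like cells but 14.6 to 18.1 CPM in MPP-, LMPP- and GMP-like cells. MEP-like E2f8 was above CMP-like E2f8 in 4 of 8 pools. E2f1, an activating E2F factor, was 34.1 ± 2.46 CPM in GMP-like and 28.0 ± 2.40 CPM in MEP-like cells.

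The 5 genes with the smallest ratio of highest to lowest class were Chaf1b (1.48), Pole (1.53), Rfc2 (1.61), Rpa2 (2.12) and Mcm6 (2.45). Chaf1b stood at 47.3 ± 9.15 CPM in LTHSC-like cells, close to the 53.2 ± 8.49 CPM of MEP-like cells, whereas Chaf1a, the other CAF-1 gene of the list, was 11.9 ± 5.02 and 55.4 ± 4.02 CPM. Rfc2 was 159.8 ± 26.9 CPM in LTHSC-like cells, 257 ± 12.9 CPM in CMP-like cells and 168 ± 14.1 CPM in MEP-like cells, whereas Rfc4 of the same clamp loader was 29.5 ± 9.10 CPM in LTHSC-like and 126 ± 14.9 CPM in MEP-like cells. Pole, the catalytic subunit of polymerase epsilon, was 15.6 ± 4.27 CPM in LTHSC-like and 13.6 ± 2.01 CPM in GMP-like cells.

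Within the classes the clusters differed as well. The 5 MEP-like clusters, in the order of their summed level, held 3614, 4235, 4662, 5683 and 7261 CPM of the 41 genes, and Ccne1 stood at 13.4, 43.6, 82.7, 121 and 123 CPM in the same order. The last of them (137 cells) was led by globin genes such as Hba-a1 and Hbb-bs, and the first (1628 cells) by genes such as Aqp1 and Car1. CMP-like clusters ranged from 2093 to 4547 CPM, one of them (3830 CPM) led by the megakaryocyte genes Pf4 and Gp1bb and another (2638 CPM) by interferon-induced genes such as Ifit1. The lowest cluster of all was a late granulocyte-like one (731 cells, led by Ltf and Retnlg) at 433 CPM, a cell type known to leave the cell cycle as it matures. Outside the 6 progenitor classes, a B-like cluster of 169 cells (4 to 41 in a pool) stood at 5750 CPM, with 9486 CPM of 45 mitosis genes, and its replication level was above that of MEP-like cells in 8 of 8 pools.

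**Figure D2:**
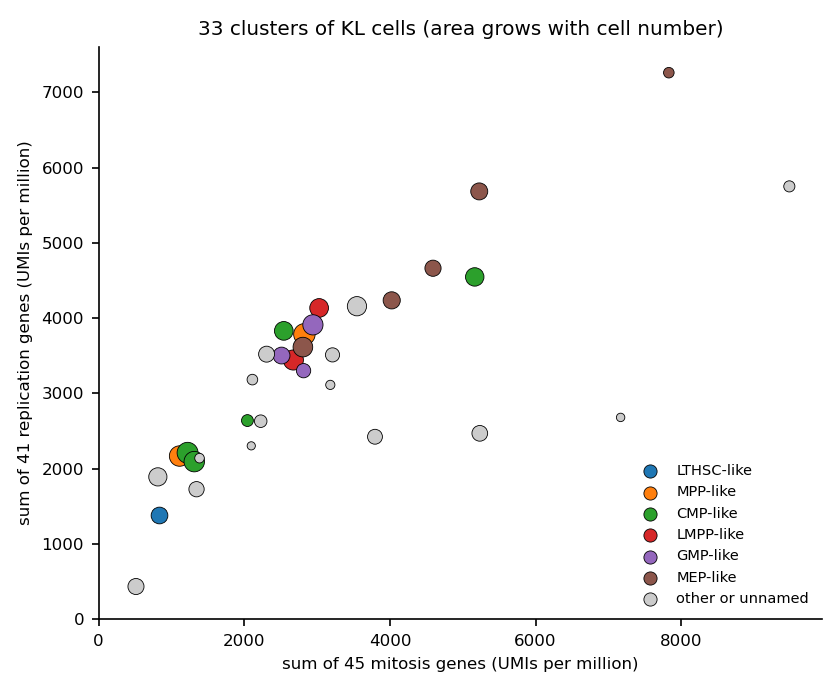
Summed CPM of the 41 replication genes (vertical axis) against that of 45 mitosis genes (horizontal axis) in the 33 clusters of KL cells, coloured by class, with larger points for more cells. The LTHSC-like cluster stands at 1388 CPM and the globin-led MEP-like cluster at 7261 CPM, and 4 clusters of other classes have far more mitosis than replication transcripts.

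Replication and mitosis genes were not in fixed proportion. The ratio of the 41 genes to the 45 mitosis genes was 1.70 ± 0.34 in LTHSC-like cells, 1.19 ± 0.06 in all KL cells, 1.10 ± 0.07 in MEP-like cells and 0.574 ± 0.130 in late granulocyte-like cells (means and SD of 8 pools). In pool 4 the LTHSC-like ratio was 0.971, from 60 cells, against 1.10 in MEP-like cells. In every other pool the LTHSC-like ratio was the higher of these 2. Within a pool, the UMIs of the 2 lists in single cells had a median r of 0.16 over 29891 KL cells (0.12 to 0.23 in the 8 pools), -0.21 in GMP-like cells (-0.29 to -0.15) and 0.20 in MEP-like cells (0.01 to 0.37), where both lists come from the same cell and library at 2759 UMIs. Of the mitosis-high cells, those with 18 or more mitosis UMIs at that depth, 4.11% in the GMP-like class and 28.8% in the MEP-like class also had 15 or more replication UMIs.

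To see which of the 41 genes stay high towards mitosis, each gene's level in the 3032 mitosis-high cells was set beside its level in replication-high cells, the other cells with the most UMIs of the remaining 40 genes (2698 to 3351 cells). Of the 41 genes, 40 were higher in replication-high cells in 8 of 8 pools. Replication-high cells were chosen by the other genes of the list, with mitosis-high cells set apart, so the choice of cells itself favours this count. The class make-up of these cell sets is not given here, and genes such as E2f1 and E2f8 differed between classes. Whether class mix has a part in the ratios below was not tested. E2f1 had the lowest ratio of mitosis-high to replication-high level, 0.248 ± 0.053, with 13.2 ± 2.88 CPM in mitosis-high cells and 53.4 ± 3.83 CPM in replication-high cells. Next came Ccne2 (0.280 ± 0.052), the chromatin remodeller Hells (0.313 ± 0.032), Dscc1 (0.373 ± 0.067) and Uhrf1 (0.381 ± 0.040), which binds newly copied DNA that is methylated on 1 strand.

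At the other end, E2f8 had 38.8 CPM in mitosis-high and 40.8 CPM in replication-high cells, a ratio of 0.960 ± 0.145 over 8 pools, and was higher in replication-high cells in 6 of 8 pools only. Rrm1, the large subunit of ribonucleotide reductase, followed with a ratio of 0.856 ± 0.056, then Pold1 (0.719 ± 0.089), Fen1 (0.706 ± 0.066) and Tk1 (0.680 ± 0.052). The pair E2f1 and E2f8 thus spanned the whole range of the list. Replication-high cells differed most from the cells with the fewest UMIs of the other genes for Ccne1 (22.9 times), Ccne2 (20.4 times), Tk1 (20 times), Dscc1 and Rrm2 (17.4 times each), and least for Rfc2 (1.91 times) and Chaf1b (2.84 times).

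**Figure D3:**
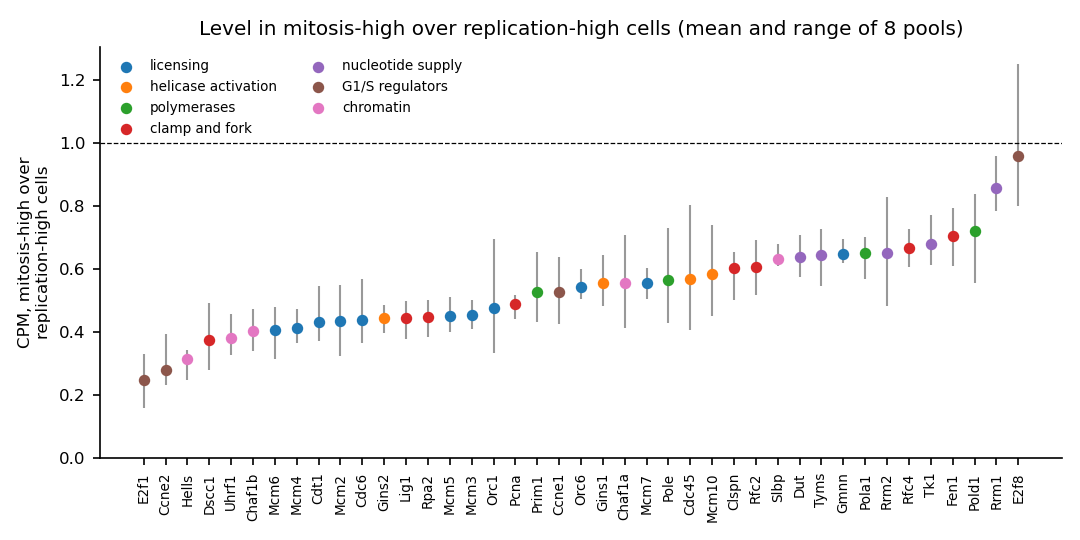
Ratio of the CPM in mitosis-high cells to the CPM in replication-high cells for each of the 41 genes, as the mean (points, coloured by role) and range (lines) of 8 pools. The ratio runs from 0.248 for E2f1 to 0.960 for E2f8, and E2f8 is the gene whose range crosses 1.

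Over the 48 sums of 6 classes and 8 pools, the genes outside the list whose log2 CPM followed the summed 41 genes most closely, among 7296 genes, were Spc24 (r = 0.980), Nasp (0.976), Srsf3 (0.970), Tipin (0.969) and Fignl1 (0.968). Spc24 encodes a kinetochore protein, Nasp a histone chaperone, Srsf3 a splicing factor and Tipin a partner of Timeless at the fork. The sums share pools and libraries, so these values are a description. Within the list, Chaf1b (0.07), Pole (0.34) and Rfc2 (0.35) followed the sum least.

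The study asked whether co-housing changes gene expression in progenitors. In all KL cells no replication gene passed the test between CVT and SPF mice. The summed level was 3532, 3925, 3889 and 3955 CPM in pools 1 to 4 and 3279.7, 3486, 3139.6 and 3560.4 CPM in pools 5 to 8, that is 3653 ± 324 CPM in CVT and 3539 ± 321 CPM in SPF pools (SD, n = 4 each), a log2 ratio of 0.05 with overlapping pools. With edgeR's quasi-likelihood test on UMI sums per pool and Benjamini-Hochberg adjustment over 13092 genes, 0 of the 41 genes passed an adjusted p of 0.05 in either direction, as did 0.0% of all genes higher and 0.0% lower. Without adjustment, 1 of the 41 genes had a p under 0.05 upwards and none downwards, against 2.99% and 4.04% of all genes. DESeq2 called 28 genes of the table higher and 2 lower, with 0 of the 41 among them. It gave an adjusted p only to Mcm3, Mcm6, Mcm7, Pcna, Gmnn, Dut, Rfc2 and Slbp, so the rest of the 41 could not be called. None of the 41 genes had CVT pools entirely above or below the SPF pools, against 0.901% and 5.26% of all genes. Of the 41 fold changes, 38 were above 0, with a median log2 of 0.11, against 46.5% of all genes and a median of -0.01.

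The gene with an unadjusted p under 0.05 was Dut, at 484 ± 30.1 CPM in CVT and 442 ± 44.5 CPM in SPF pools, a log2 fold change of 0.18 (SE 0.08; adjusted p = 0.691). Ccne1 had the largest fold change, at 26.5 ± 7.98 and 19.3 ± 6.29 CPM, a log2 fold change of 0.50 (SE 0.27; adjusted p = 0.730). Tk1 followed with a log2 fold change of 0.22 (SE 0.11; adjusted p = 0.706) and Orc6 with a log2 fold change of 0.18 (SE 0.09; adjusted p = 0.720). At the other end were Dscc1 with a log2 fold change of -0.04 (SE 0.10; adjusted p = 0.941), Rfc2 with a log2 fold change of -0.02 (SE 0.06; adjusted p = 0.962), Mcm6 with a log2 fold change of 0.00 (SE 0.11) and Fen1 with one of 0.00 (SE 0.11). Fold changes come from edgeR's fit with TMM scaling, while CPM are unscaled.

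Within pools 1 to 4 the summed level was 3922 CPM in CVT and 3729 CPM in SPF pools, and 29 of 41 genes were higher in CVT. Within pools 5 to 8 it was 3383 and 3350.0 CPM, and 25 of 41 genes were higher in CVT. The class mix differed between the groups: GMP-like cells were 12.7% ± 3.94 of CVT and 7.18% ± 1.07 of SPF pools, MEP-like cells 15.8% ± 3.48 and 12.9% ± 3.90, and LTHSC-like cells 2.01% ± 0.84 and 3.86% ± 1.03. The MEP-like share was higher in each CVT pool than in each SPF pool within pools 1 to 4 (19.6% and 17.8% against 17.2% and 14.95%) and within pools 5 to 8 (12.1% and 13.8% against 8.48% and 11.1%). Giving every pool the same class mix changed the log2 ratio of the summed level from 0.05 to -0.01, and giving each pool its own mix with common class levels gave 0.05. The 12 late granulocyte genes were all lower in CVT pools, with a median log2 of -0.50 and none past the adjusted threshold by edgeR, and their part in the result was not tested.

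**Figure D4:**
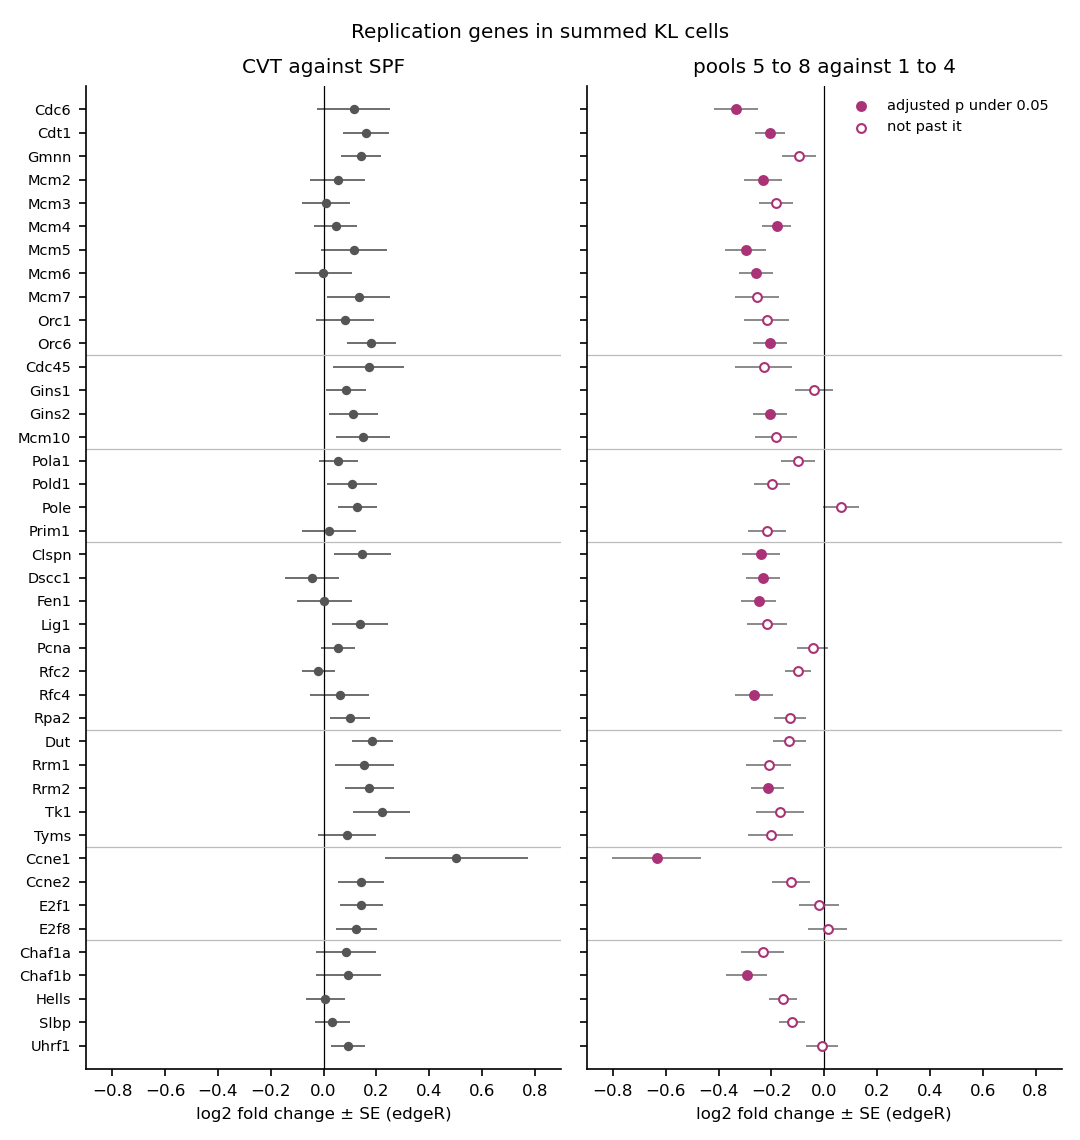
Log2 fold change with its SE from edgeR for each of the 41 genes in summed KL cells, CVT against SPF pools (left) and pools 5 to 8 against pools 1 to 4 (right). On the left no gene passes an adjusted p of 0.05, and on the right 15 genes do (filled points), all to the left of 0.

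The other genes of the pathway and the mitosis genes were compared in the same way. Here too DESeq2 could call only genes that it gave an adjusted p. Of 49 further replication genes, 0 passed the adjusted threshold with edgeR or DESeq2, 3 were higher at an unadjusted edgeR p under 0.05 (Recql4, Dna2 and Dtymk; 6.12%, against 2.99% of all genes) and 42 had a fold change above 0 (median 0.08). Of 45 mitosis genes, 0 passed with edgeR and 1 with DESeq2, 8 (17.8%, against 2.99% of all genes) were higher at an unadjusted edgeR p under 0.05, and 45 had a fold change above 0 (median 0.18).

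Within classes, housing was compared in the same way. edgeR called 0 of the 41 genes in each of the 6 classes, and 0.0% of all genes in each of them, while DESeq2 called 0 of the 41 in each class. DESeq2 could call only genes that it gave an adjusted p. In LTHSC-like cells 22 of the 41 genes had enough UMIs to be tested. The summed level there was 1526, 1547, 1362 and 1138 CPM in pools 1 to 4 and 1123, 1451, 1377 and 1439 CPM in pools 5 to 8, or 1269 ± 164 CPM in CVT and 1472 ± 79.0 CPM in SPF pools, with CVT pool 6 above SPF pools 7 and 8. At an unadjusted p under 0.05, 2 genes were lower in CVT (background 1.99%), Rfc4 (22.5 ± 6.52 against 36.5 ± 4.44 CPM, log2 -0.67, SE 0.25, adjusted p = 0.819 by edgeR) and Hells (log2 -0.60, SE 0.29, adjusted p = 0.870). No gene was higher at that level, for which the upward share of all genes is not given here. The median log2 over the 22 genes tested was -0.20. The median over all genes is not given for this class.

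In MPP-like cells the summed level was 3331, 3782, 3045 and 3036 CPM in pools 1 to 4 and 3025, 3196, 3143 and 3136 CPM in pools 5 to 8, or 3075 ± 80.9 CPM in CVT and 3348 ± 303 CPM in SPF pools. Among pools 1 to 4 all 41 genes were lower on average in the CVT pools (3040.2 against 3557 CPM), whereas among pools 5 to 8 the sums were 3111 and 3139 CPM and 23 of 41 genes were higher in CVT. One gene, Fen1, was lower in CVT at an unadjusted p under 0.05 (background 2.62%), with 70.2, 87.6, 58.2 and 63.0 CPM in pools 1 to 4 and 61.1, 66.1, 73.1 and 66.5 CPM in pools 5 to 8, each CVT pool below each SPF pool (log2 -0.21, SE 0.09, adjusted p = 0.813 by edgeR). None was higher at that level, for which the upward share of all genes is not given here. The median log2 over the 41 genes was -0.09, with 34 below 0. The median and signs of all genes are not given for this class, so these values are not read as particular to the 41.

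In GMP-like cells, whose share of the cells was larger in CVT pools, the summed level was 3808, 3920.0, 3803 and 3750.2 CPM in pools 1 to 4 and 3336, 3524, 3726 and 3765 CPM in pools 5 to 8, or 3603 ± 216 CPM in CVT and 3805 ± 83.9 CPM in SPF pools. CVT pools 5 and 6 were the lowest, and CVT pools 3 and 4 lay within the SPF range. At an unadjusted p under 0.05, Fen1 (log2 -0.17), Rfc4 (-0.14) and Dscc1 (-0.32) were lower in CVT (background 2.56%) and Cdt1 (0.15) higher (background 3.01%), with adjusted p of 0.834 to 0.876 by edgeR. Dscc1 held 25.7, 20.7, 18.3 and 17.7 CPM in pools 1 to 4 and 16.8, 15.5, 23.3 and 20.2 CPM in pools 5 to 8, each CVT pool below each SPF pool. The median log2 over the 41 genes was -0.05, with 32 below 0, again without the median and signs of all genes beside it. Within pools 1 to 4 the CVT and SPF sums were 3777 and 3864 CPM, and within pools 5 to 8 they were 3429.5 and 3745 CPM.

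**Figure D5:**
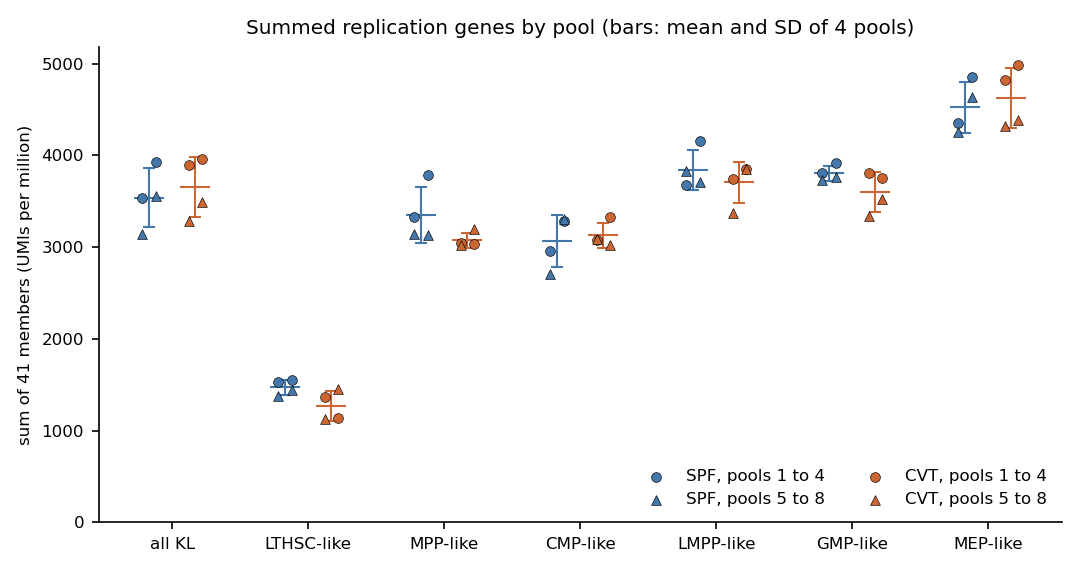
Summed CPM of the 41 genes in each pool (points; circles pools 1 to 4, triangles pools 5 to 8) with the mean and SD of 4 pools, for SPF (blue) and CVT (orange) in all KL cells and 6 progenitor classes. The LTHSC-like values lie between 1123 and 1547 CPM, under every other class, and the 2 housing groups overlap in all KL cells and in each class.

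In the remaining 3 classes no gene of the 41 reached an unadjusted edgeR p under 0.05. The shares of all genes at that level are not given for these classes, so the count is not read as a result about the 41. The same holds for the signs and medians that follow, which are given without those of all genes. The summed levels in CVT and SPF pools were 4626 ± 327 and 4523 ± 274 CPM in MEP-like cells (26 genes above 0, median log2 0.04), 3127 ± 136 and 3065 ± 284 CPM in CMP-like cells (33 above 0, median 0.08), and 3706 ± 226 and 3841 ± 219 CPM in LMPP-like cells (18 above 0, median -0.02). Ccne1 in MEP-like cells was 71.1 ± 12.9 CPM in CVT and 56.6 ± 15.1 CPM in SPF pools (log2 0.30, SE 0.15, adjusted p = 1.0 by edgeR). Whether the housing difference was unequal in GMP-like and MEP-like cells was tested with an interaction term and the pool as a block. edgeR called 0 of the 41 genes, against 0.0456% of 10959 genes with a larger difference in GMP-like cells and 0.0% with a smaller one. At an unadjusted p under 0.05, Gins2 (-0.18) and Tk1 (-0.19) had the smaller difference in GMP-like cells (background 3.05%). None had the larger one, for which the share of all genes is not given here. DESeq2 was not run on this term.

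The replication genes differed more between pools 1 to 4 and pools 5 to 8, each with 2 pools of either housing group. The summed level was 3825 ± 198 CPM in pools 1 to 4 and 3366 ± 192 CPM in pools 5 to 8 (SD, n = 4 each), a log2 ratio of -0.18. By edgeR with housing as a term, 15 of the 41 genes were lower in pools 5 to 8 at an adjusted p of 0.05, against 9.72% of all 13092 genes, and 0 were higher, against 10.5% of all genes. In 11 genes every one of pools 5 to 8 was below every one of pools 1 to 4, against 11.3% of all genes, and in none the reverse, against 7.97%. The median log2 over the 41 genes was -0.20, against 0.01 over all genes, and 39 were below 0.

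The 15 genes were Mcm2, Mcm4, Mcm5, Mcm6, Cdc6, Cdt1 and Orc6 of licensing, Gins2 of helicase activation, Fen1, Rfc4, Clspn and Dscc1 of the fork, Rrm2 of nucleotide supply, Chaf1b of the chromatin genes and Ccne1 of the G1/S regulators. Ccne1 had the largest change, -0.63 (SE 0.17; adjusted p = 0.0287), from 28.1 ± 5.98 to 17.7 ± 5.30 CPM. Cdc6 changed by -0.33 (SE 0.08; adjusted p = 0.0253), Mcm5 by -0.30 (SE 0.08; adjusted p = 0.0280), Chaf1b by -0.29 (SE 0.08; adjusted p = 0.0290) and Mcm6 by -0.26 (SE 0.06; adjusted p = 0.0253), all on the log2 scale by edgeR. The smallest change among the 15 was that of Mcm4, -0.18 (SE 0.05; adjusted p = 0.0427). None of the 4 polymerase genes passed. Pole (0.06) and E2f8 (0.01) were the 2 genes with a value above 0.

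These calls depended on which pools were in the fit. No gene of the 41 was called without pool 2, 3, 4, 5, 6 or 7, where 5.03%, 0.106%, 1.1%, 0.446%, 0.538% and 2.42% of all genes were called lower. Without pool 1, 24 of the 41 were called lower, against 11.1% of all genes, and without pool 8, 27 were, against 17.4%. In these fits 36 to 40 of the 41 stayed below 0, with a median log2 of -0.26 to -0.16. With every cell thinned to 2759 UMIs, 5 genes were called lower, against 3.97% of all genes. Other values moved with this split: 11 of the 12 late granulocyte genes were higher in pools 5 to 8 (median log2 1.40), late granulocyte-like cells were 3.68% of pools 1 to 4 and 8.50% of pools 5 to 8, MEP-like cells 17.4% and 11.4%, and GMP-like cells 11.8% and 8.16%. Without the late granulocyte-like cells 14 of the 41 genes were called, a setting for which the share of all genes is not given here. With the same class mix in every pool the log2 ratio of the summed level was -0.10. Giving each pool its own mix with common class levels gave -0.08.

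Within classes, the same split gave 4 genes called in GMP-like cells, all lower in pools 5 to 8 (background 2.04%), and 0 by edgeR in each of the other 5. For those 5 classes the share of all genes called is not given here, so the 0 is not read as a result about the 41. In GMP-like cells Chaf1b held 40.6, 40.9, 41.04 and 40.7 CPM in pools 1 to 4 and 27.6, 29.2, 32.7 and 34.5 CPM in pools 5 to 8 (log2 -0.40, adjusted p = 0.00715). Mcm6 there held 218, 206, 205 and 202 CPM in pools 1 to 4 and 159, 162, 196 and 192 CPM in pools 5 to 8 (log2 -0.22, adjusted p = 0.0220). For both genes pools 5 to 8 lay below pools 1 to 4 without overlap, and CVT pools 5 and 6 were the lowest. Mcm7 (log2 -0.25, adjusted p = 0.0291) and Cdc6 (log2 -0.32, adjusted p = 0.0488) were the other 2. Without adjustment, 13 genes in GMP-like cells had a p under 0.05 downwards and 1 upwards, against 10.2% and 10.4% of all genes. In the other classes the genes with such a p downwards were 6 in MPP-like cells (8.81% of all genes), 4 in LMPP-like cells (7.04%), 2 in CMP-like cells (8.6%), 3 in MEP-like cells (7.75%) and 1 of the 22 tested in LTHSC-like cells (3.2%), so that the counts in CMP-like and MEP-like cells were no larger a share than that of all genes. Upwards there was 1 in MEP-like cells (9.2% of all genes) and 0 in the other 4, whose upward shares of all genes are not given here.

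Of the 49 further replication genes, 7 (14.3%) were lower and 3 (6.12%) higher in pools 5 to 8 in KL cells by edgeR, against 9.72% and 10.5% of all genes. The lower ones were Pold2, Pold3 and Pole3 (polymerase subunits), Rpa1 (binds single-stranded DNA), Orc2, Timeless and Nasp. Timeless, a fork protection factor, held 41.3, 42.9, 46.5 and 54.8 CPM in pools 1 to 4 and 34.0, 32.4, 29.6 and 37.9 CPM in pools 5 to 8 (log2 -0.46, adjusted p = 0.0175). The higher ones were E2f2 (log2 0.64) and E2f3 (0.23), which encode E2F factors, and the pocket protein gene Rbl1 (0.26). E2f2 held 7.14, 5.09, 4.69 and 4.51 CPM in pools 1 to 4 and 7.83, 8.95, 8.23 and 7.21 CPM in pools 5 to 8, each of pools 5 to 8 above each of pools 1 to 4. Of the 45 mitosis genes, 1 was lower and 0 higher by edgeR, both below the shares of all genes.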

How the data were processed

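KL cells of 4 SPF and 4 CVT pools were measured by single-cell RNA-seq. The authors deposited 1 table of raw UMI counts for 27998 genes in 29891 cells (2759 to 49732 UMIs each), and the submitters' processing notes name Cell Ranger and mm9, without versions. Cells were placed in pools by the number after their barcode, which left 0 cell columns without a sample. Counts were scaled to 10000 per cell and log-transformed, and the 1000 most variable genes, after 204 cell cycle genes had been left out, were reduced to 30 components and clustered by the Leiden method (30 neighbours, resolution 2) with Python 3.11.15, scanpy 1.11.5, scikit-learn 1.9.0, igraph 0.11.9 and leidenalg 0.10.2. Clusters were named "-like" from marker lists. They stayed unnamed with under 3 markers found, or with more markers of another class among their leading genes. A cluster with few UMIs per cell and no marker of its class among its leading genes also stayed unnamed. Scrublet marked 25 cells (0.0836%), too few to have worked, so doublets were kept, and leaving out the 5% of cells with the highest scores was an alternative. 

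UMI counts were summed per pool, in all KL cells and per class, and CVT was compared with SPF by edgeR 4.0.16 (quasi-likelihood, TMM, filterByExpr, R 4.3.3) with Benjamini-Hochberg adjustment over all genes tested and a threshold of 0.05. Pools 5 to 8 were compared with pools 1 to 4 in a fit with housing as a term, a comparison added after seeing the data. Classes and single cells were described without a test, the latter after thinning each cell to 2759 UMIs, with CPM from all UMIs. The alternatives were DESeq2 1.42.0, RLE scaling, no filter on low counts, a pool-set term, other clusterings, dropping cells with under 1000 genes or over 10% of UMIs from mitochondrial genes, thinned cells and leaving out each pool. On simulated counts of 13092 genes with 200 changed genes, the KL fit recovered 88.0% of them, and for LTHSC-like cells (5469 genes) it recovered 80.5%.

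The 41 genes, the other lists and the tests were chosen with earlier results of these data known. Values per pool are given for the 8 most abundant of the 41 genes, the 4 with the largest and 4 with the smallest fold change in KL cells and those past an adjusted p of 0.05. For classes and for mitosis-high cells the 5 highest and 5 lowest ratios are named. GMP-like and MEP-like housing differences were compared with the pool as a block, and promoter windows were matched by gene symbol.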

Additional observations from a re-analysis of the deposited data

Results flagged for a closer look

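In MPP-like cells, 1 of the 4 CVT pools stood apart from the others: pool 6 had 3196 CPM of the 41 replication genes, against 3025 to 3045 CPM in CVT pools 3, 4 and 5, so that its gap to the nearest pool was 0.884 of the range of the 4 pools. A pool was looked for in this way in 96 groups of 4 pools, and this was 1 group of the 96, where chance gives about 1 in 20. The SPF pools of the same class spanned a wider range, 3136 to 3782 CPM.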

How the results depend on the processing

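In KL cells, 0 of the 41 genes were called between CVT and SPF pools in each of 17 alternatives, and the median log2 fold change over them stayed between 0.05 and 0.16. For DESeq2, the 0 rests on the few of the 41 genes given an adjusted p. In the 6 classes 0 were called in each of 19 alternatives. The medians stayed below 0 in MPP-like cells (-0.14 to -0.00) and GMP-like cells (-0.08 to -0.02) and above 0 in CMP-like (0.02 to 0.13) and MEP-like cells (0.00 to 0.07), whereas they crossed 0 in LTHSC-like (-0.33 to 0.03) and LMPP-like cells (-0.04 to 0.03). For GMP-like against MEP-like cells 0 were called in 13 alternatives, with medians of -0.10 to -0.06. Medians over all genes are not given for the classes or for this comparison. The 15 genes called lower in pools 5 to 8 became 5 in cells thinned to 1 depth, between 0 and 27 when 1 pool was left out, and 14 with RLE scaling. For RLE scaling the share of all genes called is not given. Over 12 alternatives the median log2 stayed between -0.26 and -0.16. The cause of these changes in calls was not tested. The ratio of the summed level in MEP-like to LTHSC-like cells was 3.39 ± 0.51 over 8 pools, 2.34 at a clustering resolution of 1 and 2.84 with 2000 variable genes, and the cause was not tested. The LTHSC-like class was drawn more widely in these settings. It held 857 cells as reported and 3174 at a resolution of 1, and with 2000 variable genes it included a cluster of 1425 cells. MEP-like cells were first and LTHSC-like cells last in each of these settings, but LMPP- and GMP-like cells changed places in thinned cells and with 2000 variable genes, and MPP-like cells were next to MEP-like cells at a resolution of 1. No paired analysis was possible because the labels give no replicate numbers shared by CVT and SPF pools. Depth limits the LTHSC-like class, where 19 of the 41 genes held too few UMIs to be tested.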
